A study of Rattus norvegicus with 30 samples.

Results

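The genes described here encode the nuclear subunits of the 5 complexes of oxidative phosphorylation and the factors that build them. They were taken from the array's gene symbols as those that start with Nduf, Sdh followed by a to d, Uqcr, Cox followed by a digit, or Atp5, together with Cyc1 and Cycs. Probesets that name 1 gene were used, and 100 of the 14217 genes represented on the array met the rule. Sorted by symbol, they comprise 34 genes of complex I, 4 of complex II, 8 of complex III, 18 of complex IV, 16 of complex V, 19 assembly factors and the pseudogene Cox6c-ps1. Of these, 98 were bright enough to be tested among 11604 genes. Cox8b, a muscle isoform, and Cox6b2 fell below the limit on dim probesets, with mean log2 levels of 5.12 and 6.10 against a limit of 7.39. Another 9 probesets name a member together with a relative or pseudogene, so Cycs (cytochrome c), Cox7a2, Atp5mc1, Atp5mc2, Uqcrb, Ndufs5 and Ndufa10 have no value here.

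Oxidative phosphorylation turns the energy of food into ATP at the inner mitochondrial membrane. Complex I takes electrons from NADH and complex II takes them from succinate, both pass them to coenzyme Q, complex III hands them on to cytochrome c, and complex IV gives them to oxygen. The proton gradient made on the way drives complex V, the ATP synthase. The complexes other than complex II also hold subunits made inside the mitochondrion, which these genes do not include. Hepatocytes are rich in mitochondria and use their ATP for urea, glucose and lipid metabolism. Valproate is a branched-chain fatty acid used against epilepsy; it inhibits histone deacetylases and is known for a liver toxicity that involves mitochondrial fatty acid oxidation.

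Rat hepatocytes were given sodium valproate at 0.5 or 10 mM, or water alone, and RNA was taken after 24 or 48 h, with 5 cultures in each of the 6 groups and 1 array per culture. The cells were frozen hepatocytes of male Sprague Dawley rats from 1 supplier, XenoTech, grown in collagen-coated 6-well plates under Matrigel and first dosed on day 3. Water was the vehicle, and both doses of a time share the same 5 water cultures. The labels call the cultures independent but give neither donors nor plates, so p-values measure the spread between these cultures.

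All values start from the deposited array signal, whose trimmed mean lay between 1500.5 and 1500.7 on each array. A change is a difference in mean log2(signal + 16), and a gene is called higher or lower where limma's adjusted p was under 0.05 over all tested probesets. Precision is limited by how many arrays each group has. Of the 30 arrays, 3 stood apart in the ratio of the 3′ to the 5′ actin control probeset, a measure of RNA integrity: its log2 value was above 2 on water 24 h replicate 3 and on 0.5 mM 48 h replicates 3 and 4, against 1.38 to 1.55 on the 10 mM arrays at 24 h. Counts that change without these arrays are given both ways. Defining hepatocyte genes were among the brightest on the array, with a mean log2 level of 16.14 for Alb and 15.87 for Cps1. The members were bright too, with a median level of 13.97 against 10.39 over all genes tested, and that matters for the comparison of scalings given further on.

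Many promoters of these genes carry short elements that nuclear regulators of mitochondrial genes are known to bind. Promoters from 250 bases before to 50 after the start were found in RefSeq (GRCr8) for 91 of the 100 genes and searched on both strands for 4 motifs. CCGGAAG, the core read by GABPA and other ETS factors, was present in 29 of the 91 (31.9%) against 8.77% of 33365 promoters of the same length. AAGATGGCG, for YY1, was present in 12 (13.2%, against 1.74%), GCGCATGCG, for NRF1, in 8 (8.79%, against 1.52%), and TCAAGGTCA, for estrogen-related receptors, in 2 (2.2%, against 0.435%). No match overlapped a match of another of the 4 motifs. The ETS core was found among members that moved either way: of the members with a promoter, it was in 6 of the 22 called higher at 10 mM and 24 h, in 8 of the 29 called lower, and in 15 of the 38 not called. The 7 stretches below were chosen after the values were seen. Those with the ETS core show the same element in genes that moved in opposite directions. Those with the NRF1 motif come from genes that fell, at different doses. Capitals mark the ETS core on either strand in Ndufs8 and Ndufaf1, which fell at 10 mM, and in Uqcrh, Sdhaf1 and Sdhaf3, which rose; in Ndufaf4, which fell at 0.5 mM alone, and in Uqcrc1, which fell at 10 mM, they mark the NRF1 motif, which in Ndufaf4 reads on both strands. Each reads 5′ to 3′ along the gene.
Ndufs8 (chr1:210573679-210573788, minus strand): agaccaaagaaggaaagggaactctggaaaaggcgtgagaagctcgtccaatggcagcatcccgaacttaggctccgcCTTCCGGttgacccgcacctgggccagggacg
Ndufaf1 (chr3:127104001-127104110, minus strand): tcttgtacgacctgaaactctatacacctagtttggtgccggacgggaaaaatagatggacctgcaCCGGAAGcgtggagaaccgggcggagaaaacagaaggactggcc
Uqcrh (chr5:134790901-134791010, minus strand): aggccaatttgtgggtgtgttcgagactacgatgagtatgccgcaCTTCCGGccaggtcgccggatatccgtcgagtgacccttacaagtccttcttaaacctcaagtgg
Sdhaf1 (chr1:94704592-94704701, minus strand): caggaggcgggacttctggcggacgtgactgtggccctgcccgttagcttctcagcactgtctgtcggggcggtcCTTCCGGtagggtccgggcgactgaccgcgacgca
Sdhaf3 (chr4:36066804-36066913, plus strand): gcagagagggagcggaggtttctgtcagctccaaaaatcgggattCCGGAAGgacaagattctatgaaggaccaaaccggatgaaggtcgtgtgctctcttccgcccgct
Ndufaf4 (chr5:43401592-43401701, plus strand): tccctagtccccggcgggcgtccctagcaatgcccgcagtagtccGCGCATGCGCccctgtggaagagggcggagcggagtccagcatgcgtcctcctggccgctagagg
Uqcrc1 (chr8:118468133-118468242, plus strand): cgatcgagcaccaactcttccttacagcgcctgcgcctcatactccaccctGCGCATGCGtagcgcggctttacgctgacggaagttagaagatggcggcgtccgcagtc

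At 10 mM the members moved in both directions, and the counts differed from complex to complex. After 24 h, 24 of the 98 genes were higher (24.5%, against 31.1% of all genes tested) and 30 were lower (30.6%, against 25%). After 48 h, 18 were higher (18.4%, against 27.6%) and 38 were lower (38.8%, against 22.3%). The shares at 24 h lay near the background of the whole array. The share lower at 48 h lay above it, but not above that of genes of like brightness: among genes with a mean log2 level of 14 or more, 21 of 48 members were lower (43.8%) against 321 of all 627 genes (51.2%), and 5 members against 112 genes were higher. Median changes over the 98 genes were -0.01 and -0.09, beside 0.07 and 0.03 over all genes. Of the genes lower at 24 h, 29 of 30 (96.7%) were also lower at 48 h, which is 76.3% of the 48 h list, and 14 of the 24 genes higher at 24 h (58.3%) were higher at 48 h, which is 77.8% of that list. How many of all genes tested kept their call from 24 to 48 h was not counted, so this is not set apart from the array as a whole.

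The split depended on how the arrays were scaled. Quantile normalization gave 43 higher and 24 lower at 24 h, where 28.7% of all genes were higher and 27.6% lower, and 35 and 29 at 48 h, beside 26% and 24.6%. Centring each array on its median gave 14 and 43 (all genes 23.2% and 32.1%), then 9 and 45 (20.7% and 28.5%). Centring on 46 ribosomal protein genes gave 31 and 29 (all genes 32.9% and 22.1%), then 41 and 23 (37.5% and 14.1%). Over all 4 scalings, the deposited one included, 14 genes were higher each time and 23 were lower each time at 24 h, and 9 and 23 at 48 h. At 24 h, 5 genes were called both ways under different scalings: Cox4i1, Cox5b, Cox8a, Ndufb4 and Uqcr11, of which Ndufb4 and Uqcr11 were singled out after their values were seen. For these 5 no direction is given at 10 mM and 24 h.

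**Figure D1:**
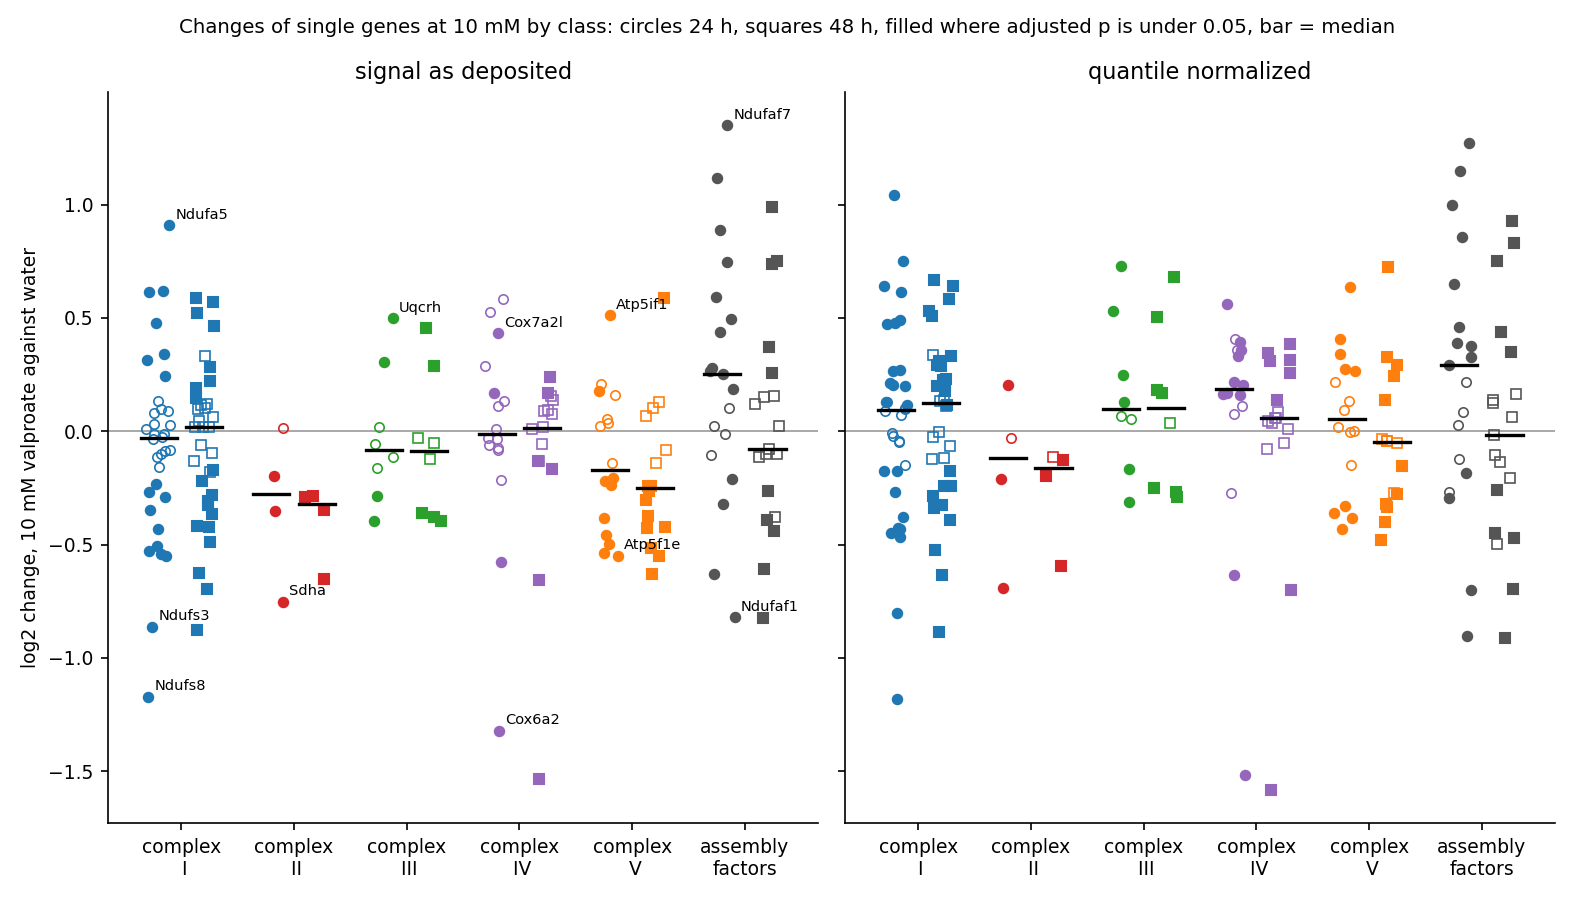
Change of each gene (vertical axis, log2 difference from water) at 10 mM, by class, with circles for 24 h, squares for 48 h, filled symbols for adjusted p under 0.05 and bars for class medians, from the signal as deposited on the left and after quantile normalization on the right. Ndufs8, Sdha and Ndufaf1 lie low and Ndufaf7 and Uqcrh lie high in both panels, while the medians of complexes III and V at 24 h move from -0.08 and -0.17 on the left to 0.10 and 0.06 on the right.

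Complex I, the largest complex, passes electrons along iron-sulfur clusters in an arm that points into the matrix. At 10 mM and 24 h, 7 of its 34 genes were higher (20.6%, against 31.1% of all genes) and 11 lower (32.4%, against 25%). At 48 h 8 were higher (23.5%, against 27.6%) and 12 lower (35.3%, against 22.3%). Medians were -0.03 and 0.02. After quantile normalization the counts were 14 higher and 10 lower, then 15 and 10. The widest fall was that of Ndufs8, a core subunit that carries iron-sulfur clusters. Its signals in water at 24 h were 6803, 7130, 7252, 7828 and 7503, and at 10 mM they were 3165, 3128, 3312, 3348 and 3223. The groups lay far apart, and the change was -1.17 (SE 0.058, limma adjusted p = 5.22e-17). At 48 h the signals were 7490, 7658, 7184, 7497 and 7756 in water and 4402, 4513, 3824, 3737 and 4014 at 10 mM, again with no overlap. The fall at 48 h was 0.88 on the log2 scale, and it was smaller than at 24 h (difference 0.29, SE 0.081, limma adjusted p = 0.0162). Under the 4 scalings Ndufs8 was lower each time.

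Ndufs3, another core subunit of the matrix arm, had signals of 12646, 14435, 12165, 13559 and 13552 in water at 24 h and of 7555, 7530, 7360, 7261 and 6736 at 10 mM. It fell by 0.86 at 24 h (SE 0.070, limma adjusted p = 4.43e-12) and by 0.70 at 48 h. Ndufs1, the largest core subunit, fell by 0.43 and 0.28. Ndufs7, a core subunit next to the coenzyme Q site, named after its values were seen, fell by 0.27 and 0.32. Ndufv1, which binds NADH, did not pass at 24 h (change 0.10) and was higher by 0.19 at 48 h, a call lost in 6 of 10 fits without 1 array. Taken as a group after the values were seen, 4 of the 6 core subunits measured were lower at 24 h (median -0.35), against 25% of all genes. At 48 h 4 of these 6 were lower and 1 higher, against 22.3% and 27.6% of all genes.

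The 28 accessory subunits, which surround the core, were more evenly split, with 7 higher and 7 lower at 24 h and 7 and 8 at 48 h. Over all genes 31.1% were higher and 25% lower at 24 h, and 27.6% and 22.3% at 48 h. After quantile normalization the accessory counts were 13 and 6, then 14 and 6, beside 28.7% and 27.6%, then 26% and 24.6%, of all genes. Among the accessory subunits Ndufb10, in the membrane arm, had signals of 10661, 11122, 10447, 11272 and 11761 in water and of 15840, 16901, 17242, 17301 and 17373 at 10 mM and 24 h. No culture of 1 group reached the range of the other, and the rise was 0.61 (SE 0.060, limma adjusted p = 3.08e-10), with 0.52 at 48 h. Ndufb6, also in the membrane arm, rose by 0.48 and 0.47. Ndufa5, in the matrix arm, rose by 0.91 at 24 h but varied widely: its signals were 9570, 11101, 4528, 8991 and 9448 in water and 12699, 20146, 16510, 14566 and 15688 at 10 mM. The lowest water value came from replicate 3, the array with a high actin ratio, and the rise at 48 h (0.57, limma adjusted p = 0.0499) was lost in 8 of the 10 fits that left out 1 array. Ndufs4 rose by 0.62 at 24 h and did not pass at 48 h (0.33).

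Falls among accessory subunits were moderate. Ndufs6, a zinc-binding subunit, fell by 0.55 and 0.62, Ndufa9 by 0.54 and 0.36, and Ndufc1 by 0.53 and 0.49. Ndufb8, in the membrane arm, behaved differently at the 2 times. Its signals at 24 h were 2406, 2340, 1740, 2698 and 2814 in water and 1665, 2320, 2311, 2799 and 2232 at 10 mM, which overlap (change -0.08). At 48 h they were 2713, 2237, 2477, 2651 and 3122 in water and 3586, 4179, 4651, 3543 and 3880 at 10 mM, which do not. The rise at 48 h was 0.59, and the change of effect between the times was 0.67 (SE 0.204, limma adjusted p = 0.0303), a call that was lost in 7 of 20 fits without 1 array.

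Complex II, succinate dehydrogenase, belongs to both the respiratory chain and the tricarboxylic acid cycle, and here it was the complex with the lowest median at 10 mM. Of its 4 genes, 3 were lower at 24 h (against 25% of all genes) and all 4 at 48 h (against 22.3%). Medians were -0.28 and -0.32. After quantile normalization 2 were lower and 1 higher at 24 h, and 3 were lower at 48 h. Sdha, the catalytic flavoprotein, had signals of 13201, 12820, 12707, 13371 and 12994 in water at 24 h and of 7475, 7813, 7489, 8157 and 7724 at 10 mM. At 48 h the water values were 13023, 14190, 13276, 13428 and 13763, and those at 10 mM were 8174, 9721, 7962, 8481 and 8808. The groups did not overlap at either time, and Sdha fell by 0.75 at 24 h (SE 0.058, limma adjusted p = 1.5e-12) and by 0.65 at 48 h. Sdhc, a membrane anchor, fell by 0.35 at both times, and like Sdha it was lower under all 4 scalings. Sdhb, the iron-sulfur subunit, fell by 0.20 and 0.29, but its change at 24 h did not pass after quantile normalization (-0.03). Sdhd, the other anchor, did not pass at 24 h (0.01) and fell by 0.29 at 48 h. That call also did not pass after quantile normalization (-0.11), where Sdhd was higher at 24 h (0.20).

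Complex III held calls in both directions. Of its 8 genes, 2 were higher and 2 lower at 24 h (25% each, against 31.1% and 25% of all genes). At 48 h 2 were higher (25%, against 27.6%) and 3 lower (37.5%, against 22.3%). Medians were -0.08 and -0.09. After quantile normalization 4 were higher and 2 lower, then 4 and 3. Uqcrh, the hinge protein beside cytochrome c1, had signals of 26914, 31176, 27838, 28957 and 31394 in water at 24 h and of 37393, 44971, 43103, 44383 and 37199 at 10 mM. All treated cultures lay above all water cultures, and Uqcrh rose by 0.50 (SE 0.060, limma adjusted p = 2.43e-08), then by 0.45 at 48 h. Uqcr10, a small membrane subunit, rose by 0.30 and 0.29. Uqcrc1, a core subunit outside the redox path, fell by 0.40 and 0.38, and Uqcrc2, its partner, did not pass at 24 h (-0.11) and fell by 0.40 at 48 h. Cyc1, the cytochrome that receives electrons inside the complex, fell by 0.28 and 0.36. Uqcrfs1, the Rieske iron-sulfur protein, did not pass with the deposited signal (0.02 and -0.05) and was higher after quantile normalization (0.25 and 0.17).

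Complex IV, cytochrome c oxidase, had the fewest calls for its size with the deposited signal, a rank that quantile normalization did not keep at 24 h. At 10 mM and 24 h, 2 of its 16 tested genes were higher and 2 lower (12.5% each, against 31.1% and 25% of all genes). At 48 h 2 were higher (12.5%, against 27.6%) and 4 lower (25%, against 22.3%). Medians were -0.01 and 0.02. Quantile normalization made these counts 9 higher and 2 lower, then 6 and 2, so the balance within complex IV rests on the scaling. Cox4i1, the main isoform of a regulatory subunit, had signals of 43255, 43379, 41773, 44713 and 50389 in water at 24 h and of 40228, 46196, 42627, 43712 and 45208 at 10 mM, which overlap. Its change was -0.03 from the deposited signal (not called) and 0.17 after quantile normalization (called), the same data on 2 scales.

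Of the complex IV genes with a call under every scaling at 24 h, Cox7a2l was higher and Ndufa4l2 and Cox6a2 were lower. Cox7a2l, which tethers complexes III and IV to each other, rose by 0.43 at 24 h and 0.24 at 48 h. Cox6a2, the heart and muscle isoform of a subunit whose common form is Cox6a1, was dim, with signals of 297, 399, 263, 269 and 239 in water at 24 h and of 201, 44.9, 38.7, 230 and 137 at 10 mM. It was called lower at both times (limma adjusted p = 0.00469 and 0.00148), but 3 of its 5 signals at 10 mM and 24 h and 2 of 5 at 48 h lay under the limit for dim probesets, a signal of 152, so no size is given. Cox6a1 rose by 0.17 at both times, but its call was lost in 6 of 10 fits without 1 array at each time. Cox5b and Cox8a were lower at 48 h by 0.17 and 0.13 with the deposited signal, and both changes were above 0 and not called after quantile normalization; the call of Cox8a was also lost in 6 of 10 fits without 1 array. Cox5a and Cox7a1, the muscle isoform of another subunit, did not pass at either time.

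Ndufa4, once counted in complex I and now placed in complex IV, did not pass at 10 mM (0.13 and 0.09), although it was higher after quantile normalization (0.36 and 0.32). Its relative Ndufa4l2, known as a gene induced by low oxygen, had signals of 4219, 2475, 6068, 3869 and 3419 in water at 24 h and of 2352, 2630, 2461, 2872 and 2571 at 10 mM. A single water culture, replicate 2, lay inside the treated range. Ndufa4l2 fell by 0.58 at 24 h (limma adjusted p = 0.00964) and by 0.65 at 48 h. Without water replicate 3, the array with a high actin ratio and the highest value, the change at 24 h was -0.41 and no longer passed.

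In complex V, the ATP synthase, falls outnumbered rises at 10 mM with the deposited signal. Of its 16 genes, 2 were higher (12.5%, against 31.1% of all genes) and 8 lower (50%, against 25%) at 24 h. At 48 h 1 was higher (6.25%, against 27.6%) and 10 lower (62.5%, against 22.3%). Medians were -0.17 and -0.25. Among all 627 genes with a mean log2 level of 14 or more, 49.0% were lower at 24 h and 51.2% at 48 h. After quantile normalization the counts of complex V were 5 and 4, then 5 and 6. All 5 genes of the catalytic head, Atp5f1a to Atp5f1e, were lower at both times with the deposited signal (medians -0.46 and -0.51), a group formed after the values were seen. After quantile normalization 3 of them were lower at 24 h and 4 at 48 h. Atp5f1a, the alpha subunit, had signals of 23504, 26367, 21743, 26752 and 28768 in water at 24 h and of 16573, 19949, 17708, 19329 and 18688 at 10 mM. The groups did not overlap, and Atp5f1a fell by 0.46 (SE 0.068, limma adjusted p = 1.05e-06) and at 48 h by 0.55. Atp5f1b, the beta subunit where ATP is made, fell by 0.38 and 0.51, with a change at 24 h that did not pass after quantile normalization (-0.15). Atp5f1e, the epsilon subunit, fell by 0.55 and 0.63, and Atp5f1d by 0.54 and 0.42.

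Of the other complex V genes, Atp5po, in the stalk that holds the head, fell by 0.50 and 0.43 on its bright probeset. A second, dim probeset of Atp5po (mean log2 level 7.54) was higher by 1.02 and 1.06, so the probesets of this gene disagree. Atp5mc3, a gene of the proton-carrying ring, fell by 0.24 at both times and did not pass after quantile normalization. The exception to the falls was Atp5if1, which inhibits the ATP synthase when it would run backwards. Its signals were 12646, 13382, 10419, 12604 and 12735 in water at 24 h and 17899, 18890, 17705, 16919 and 16516 at 10 mM. It rose by 0.51 (SE 0.088, limma adjusted p = 1.11e-05) and by 0.59 at 48 h, with all treated cultures above water at both times and a call under all 4 scalings. Its 2 dimmer probesets had changes of 0.28 and 0.49 at 24 h, both called, and of 0.24 (not called) and 0.63 at 48 h.

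**Figure D2:**
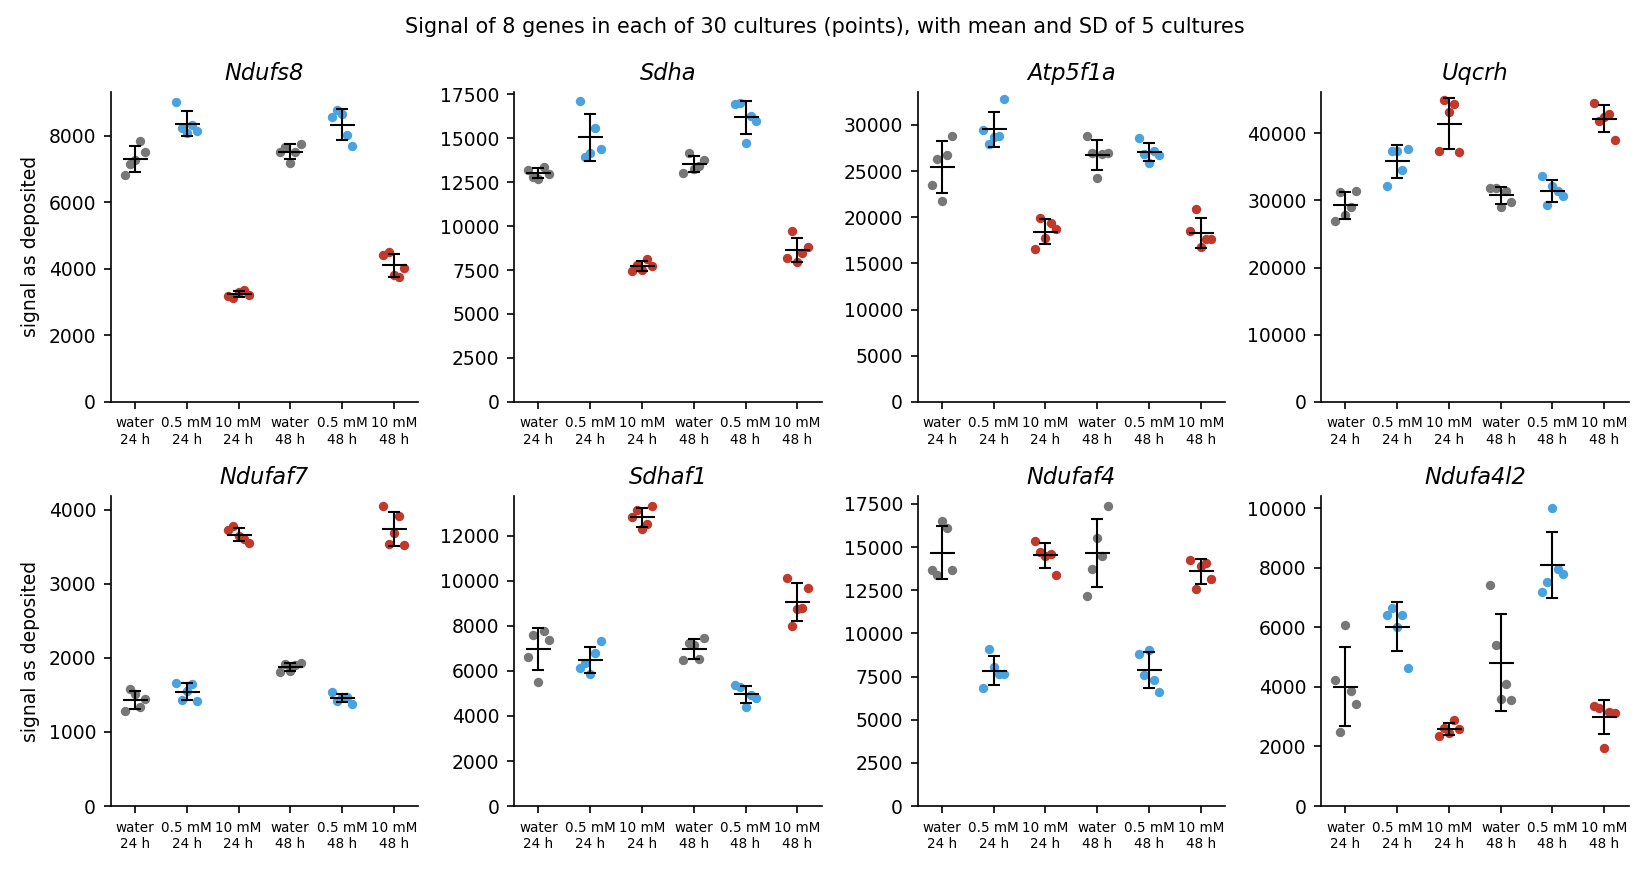
Deposited signal (vertical axis, linear, from 0) of 8 genes in each of the 30 cultures (points), with the mean and SD of the 5 cultures of each group. At 10 mM Ndufs8, Sdha and Atp5f1a sit below water and Uqcrh, Ndufaf7 and Sdhaf1 above it, while Ndufaf4 is low at 0.5 mM alone and Ndufa4l2 is high at 0.5 mM and low at 10 mM.

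Among assembly factors more genes were higher than lower at 10 mM and 24 h. These proteins help to insert cofactors or to join modules and are not kept in the finished complex. After 24 h 11 of the 19 were higher (57.9%, against 31.1% of all genes) and 4 lower (21.1%, against 25%; median 0.25). After 48 h 5 were higher and 5 lower (26.3% each, against 27.6% and 22.3%), shares near the background. The median was then -0.08, and 0.01 without water replicate 3. Quantile normalization gave 10 and 4, then 5 and 5. Over the classes, the mean difference of the 5 arrays from water at 10 mM and 24 h was 0.25 ± 0.02 (SD, n = 5) for assembly factors, against -0.07 ± 0.03 for complex I, -0.32 ± 0.03 for complex II and -0.13 ± 0.04 for complex V. Without the arrays with a high actin ratio the median of the assembly factors at 24 h was 0.19.

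Ndufaf7, a methyltransferase that acts on a core subunit of complex I during assembly, showed the widest rise. Its signals in water at 24 h were 1277, 1577, 1507, 1343 and 1445, and at 10 mM they were 3724, 3773, 3643, 3605 and 3552. The rise was 1.35 (SE 0.068, limma adjusted p = 9.82e-17), and at 48 h it was 0.99, a smaller effect (difference -0.36, limma adjusted p = 0.0122). A second probeset of Ndufaf7 rose by 0.81 and 1.02. In the opposite direction, Ndufaf1, which helps to build the membrane arm, had signals of 1942, 2405, 2298, 2485 and 2624 in water and of 1224, 1326, 1273, 1274 and 1516 at 10 mM. The groups did not overlap, and Ndufaf1 fell by 0.82 at both times. Ndufaf8 fell by 0.63 and 0.39.

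All 4 assembly factors of complex II changed at 10 mM and 24 h. Sdhaf1 and Sdhaf3, which help to fit iron-sulfur clusters into Sdhb, were both higher. Signals of Sdhaf1 were 6616, 7583, 5491, 7764 and 7368 in water at 24 h and 12816, 13158, 12293, 12547 and 13313 at 10 mM. Those of Sdhaf3 were 3528, 3408, 2125, 3826 and 3681 in water and 6977, 6948, 7334, 7230 and 6791 at 10 mM. For both genes the treated cultures lay well above water; Sdhaf1 rose by 0.89 (SE 0.081, limma adjusted p = 6.93e-11) and Sdhaf3 by 1.12 (SE 0.123, limma adjusted p = 3.57e-09). At 48 h the rises were 0.37 and 0.75, and the change of effect for Sdhaf1 was -0.52 (limma adjusted p = 0.00264). Sdhaf4, which acts on Sdha, rose by 0.44 at 24 h and did not pass at 48 h (0.12). Sdhaf2, which attaches the flavin to Sdha, fell by 0.32 and 0.44 on its brightest probeset, but averaged over its probesets the change at 48 h was 0.44.

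Among the assembly factors of complex IV, Cox14, which stabilises its newly made core subunit, rose by 0.75 and 0.74. Its signals in water at 24 h were 8259, 8046, 8203, 8166 and 8264, and at 10 mM they were 13284, 14835, 13598, 14158 and 13010, with no overlap. Cox19 rose by 0.59 at 24 h and did not pass at 48 h (0.15). Cox15, which makes heme A, fell by 0.21 and 0.26, but its change at 24 h was 0.03 with the mean of its probesets, and that call was lost in 3 of 10 fits without 1 array. Cox20 fell by 0.61 at 48 h. Cox17, a copper chaperone named after its values were seen, rose by 0.28 and 0.26.

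At 0.5 mM and 24 h nearly all calls were rises, and the subunits of all 5 complexes shared in them. Of the 98 genes, 56 were higher (57.1%, against 12.7% of all genes tested) and 2 were lower (2.04%, against 16.1%), with a median of 0.21 beside 0.02. The rises covered 21 of 34 genes of complex I, 4 of 4 of complex II, 4 of 8 of complex III, 12 of 16 of complex IV and 12 of 16 of complex V, but only 2 of 19 assembly factors, Cox16 and Cox18 (Cox18 was singled out after its values were seen). Class medians ran from 0.17 for complex III to 0.27 for complex IV, and the median of the assembly factors was 0.08. The pseudogene Cox6c-ps1 was the remaining higher gene (0.42), and it was not called in the other comparisons with water. In 42 of the 98 genes all 5 treated cultures lay above all 5 water cultures (against 8.89% of all genes tested), and in 1 they lay below (against 11%). The changes were small: 3 of the 56 reached 0.5 on the log2 scale.

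At 0.5 mM and 24 h rises outnumbered falls under each of the 4 scalings, while their number varied. Quantile normalization gave 45 higher and 1 lower, where 11.3% of all genes were higher and 15.2% lower. Median centring gave 24 and 2 (all genes 8.69% and 18.5%), ribosomal centring 28 and 3 (6.0% and 22.1%), and leaving out the arrays with a high actin ratio 49 and 2 (13% and 15.3%). By class, quantile normalization left 20 genes of complex I higher, 3 of complex II, 3 of complex III, 8 of complex IV and 8 of complex V. Over all 4 scalings 21 genes were higher each time, among them Ndufb10, Ndufc1, Sdhd, Uqcrh, Uqcrc2, Cox4i1, Ndufa4 and Atp5mc3, and Ndufaf4 was lower each time. Averaged over the 98 genes, each of the 5 arrays at 0.5 mM and 24 h was above the water mean, by 0.16 to 0.24.

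Cox4i1 at 0.5 mM and 24 h had signals of 55463, 50846, 54863, 51589 and 57605, all above the highest water value of 50389, and it rose by 0.28 (SE 0.059, limma adjusted p = 0.000881). Ndufc1, a membrane arm subunit of complex I, had signals of 20191, 20163, 19007, 20677 and 21578 in water and of 30659, 27448, 26230, 26623 and 26923 at 0.5 mM. It rose by 0.44, and Atp5me, a small membrane subunit of the ATP synthase, rose by 0.44 as well. Sdhd rose by 0.41, Sdha by 0.20 and Uqcrh by 0.29. Ndufa4l2, at 6408, 6644, 6003, 6421 and 4621, rose by 0.63, with 2 treated cultures below the highest water culture (6068, replicate 3). Its call was lost without water replicate 2. Cox4i2, the lung isoform of the Cox4i1 subunit, had the largest fitted rise (1.26, limma adjusted p = 0.0465), but it was dim, its signals in water ran from 36.2 to 250, and the call was lost in 6 of the fits without 1 array.

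Ndufaf4, an assembly factor of complex I, was the clear exception. Its signals were 13677, 13365, 16536, 16128 and 13661 in water at 24 h and 6850, 9083, 8046, 7640 and 7628 at 0.5 mM. At 48 h they were 12146, 13736, 15538, 14477 and 17404 in water and 8795, 7590, 9057, 7328 and 6621 at 0.5 mM. Every treated culture lay below every water culture, and Ndufaf4 fell by 0.90 at 24 h (SE 0.089, limma adjusted p = 6.64e-09) and by 0.89 at 48 h (limma adjusted p = 7.2e-09). At 10 mM its signals of 15346, 14706, 14497, 14626 and 13402 at 24 h lay within the water range, and its changes of -0.01 and -0.10 did not pass. Compared directly, 10 mM was above 0.5 mM by 0.89 at 24 h and 0.79 at 48 h, both called. Ndufaf3 was the other gene that fell at 0.5 mM and 24 h (by 0.27), and the count of 2 became 1 without water replicate 4 or 0.5 mM replicate 5.

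At 0.5 mM and 48 h few subunits passed, and assembly factors were lower. In all, 6 genes were higher (6.12%, against 11.9% of all genes) and 10 were lower (10.2%, against 14.1%), shares below the background; the number higher was 3 without water replicate 3 and 10 without 0.5 mM replicate 5. The 6 higher genes were Ndufv1 (0.31), Ndufc1 (0.23), Sdha (0.26), Uqcrc1 (0.20), Ndufa4l2 (0.80) and Cox7b (0.20, named after its values were seen). Of the 10 lower genes 9 were assembly factors, so 9 of the 19 assembly factors fell, with a class median of -0.32. Sdhaf1 was at 5382, 5272, 4413, 4919 and 4787 against 6483, 7253, 7143, 6551 and 7484 in water, and it fell by 0.49 (SE 0.081, limma adjusted p = 3.18e-05). Sdhaf4 fell by 0.58, Sdhaf3 by 0.43, Ndufaf3 by 0.41, Ndufaf7 by 0.36, Cox14 by 0.34 and Cox19 by 0.32. The lower gene outside the class was Atp5if1, by 0.25 on its brightest probeset; its other probesets were at 0.19 (not called) and 0.49 (called higher, limma adjusted p = 0.00596), so the probesets of this gene disagree here. Uqcrc1 was not called without water replicate 3 or without 0.5 mM replicate 3, one of the arrays with a high actin ratio, and its change was as small as 0.13 over the fits without 1 array. The call of Ndufc1 was lost in 4 of 10 fits without 1 array, and that of Sdhaf3 without 0.5 mM replicate 3.

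This group held 2 of the 3 arrays with a high actin ratio, and its arrays spread more than those of the others. Since the fit shares 1 estimate of spread per probeset over all 6 groups, the SEs and limma p-values given for this group do not rest on its own wider spread alone. The mean over the 98 genes was 0.13, 0.07, -0.04, -0.08 and -0.12 against water on replicates 1 to 5, whose log2 actin ratios were 1.32, 1.05, 2.77, 2.23 and 1.74. For the assembly factors alone the means were -0.12, -0.16, -0.43, -0.32 and -0.39. The part of RNA integrity in these differences was not tested beyond leaving arrays out: without the arrays with a high actin ratio 4 genes were higher and 7 lower (all genes 8.47% and 12%). Scaling mattered here as well, since centring on ribosomal protein genes gave 57 higher and 4 lower (all genes 22.7% and 5.33%). Median centring gave 3 and 9 (all genes 11.2% and 12.8%), and quantile normalization 8 and 11 (12.3% and 14.6%). Under all 4 scalings Ndufa4l2, Ndufv1 and Sdha were higher and Ndufaf3, Ndufaf4, Sdhaf1 and Sdhaf4 lower.

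**Figure D3:**
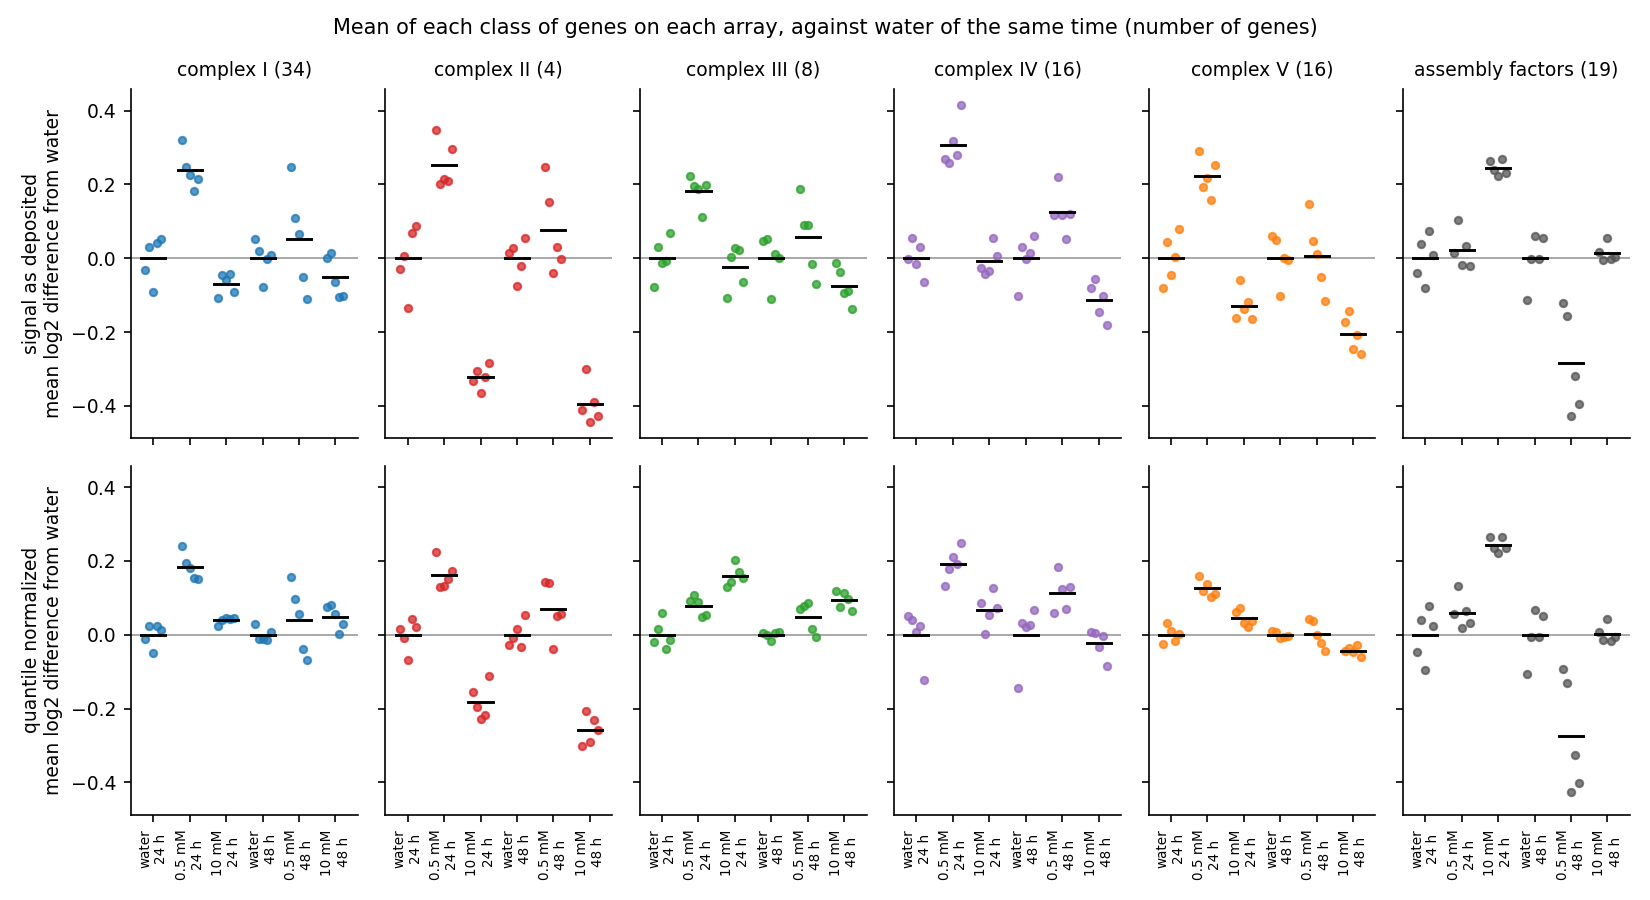
Mean log2 difference from the water cultures of the same time (vertical axis) of each class of genes on each of the 30 arrays (points), with group means (bars), from the signal as deposited (top) and after quantile normalization (bottom). The 5 complexes lie above water at 0.5 mM and 24 h in both panels, complex II lies below water at 10 mM in both (-0.32 and -0.39 as deposited, -0.18 and -0.26 quantile normalized), and complex V at 10 mM and 24 h changes from -0.13 to 0.05.

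The doses differed directly from each other. At 24 h 13 genes were higher at 10 mM than at 0.5 mM (13.3%, against 32.9% of all genes) and 59 were lower (60.2%, against 26.4%), and at 48 h 19 were higher (19.4%, against 30.0%) and 39 lower (39.8%, against 23.8%). Quantile normalization changed the balance to 26 and 31 at 24 h (all genes 31.4% and 28.4%) and 37 and 31 at 48 h (28.6% and 26.7%). At 48 h median centring gave 13 and 49 (all genes 23.8% and 29.9%), and at 24 h ribosomal centring gave 18 and 40 (39.7% and 18.3%). By class, 23 of 34 genes of complex I were lower at 10 mM at 24 h, with 4 of 4 of complex II, 6 of 8 of complex III, 9 of 16 of complex IV and 13 of 16 of complex V, whereas 9 of 19 assembly factors were higher and 4 lower. After quantile normalization the genes higher and lower at 24 h were 6 and 14 in complex I, 0 and 2 in complex II, 4 and 2 in complex III, 5 and 2 in complex IV, 3 and 6 in complex V, and 8 and 4 among assembly factors. Under different scalings 8 genes were called both ways at 24 h, namely Atp5pd, Cox6b1, Cox7b, Ndufa4, Ndufa6, Ndufb9, Uqcr11 and Uqcrfs1, singled out for that, and 1 at 48 h, Cox6c. At 48 h 10 assembly factors were higher and 3 lower.

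Against the shared water cultures and with the deposited signal, 15 genes were higher at 0.5 mM and lower at 10 mM after 24 h. All were subunits, and each had a called difference between the doses, which opposite calls against the same water cultures make likely. They comprise Ndufs7, Ndufs8, Ndufb2, Ndufb3, Ndufc1 and Ndufc2 of complex I, Sdha, Sdhb and Sdhc of complex II, Ndufa4l2 of complex IV, and Atp5f1a, Atp5f1c, Atp5mc3, Atp5mf and Atp5po of complex V, a list formed from the calls. The dim second probeset of Atp5po was instead called higher at both doses at 24 h (1.175 at 0.5 mM and 1.024 at 10 mM). The 24 h calls at 0.5 mM of Sdhb and Atp5f1a were lost in 6 and 3 of 10 fits without 1 array. Ndufs8 differed by -1.36 between the doses, Ndufc1 by -0.97, Sdha by -0.96 and Ndufa4l2 by -1.21. At 48 h 4 genes showed this pattern, Ndufa4l2, Ndufc1, Sdha and Uqcrc1, and Ndufa4l2 had the widest gap at -1.45. The reverse, lower at 0.5 mM and higher at 10 mM, was seen for Ndufaf3 at 24 h and for 6 genes at 48 h, namely Atp5if1, Cox14, Cox17, Ndufaf7, Sdhaf1 and Sdhaf3. Of those 6, Ndufaf7 differed by 1.35 between the doses, Sdhaf3 by 1.18 and Cox14 by 1.07. Both patterns rest on 1 set of water cultures per time, and most of the lists changed with the scaling. The share of all genes tested with either pattern was not counted. Higher at 0.5 mM and lower at 10 mM held under all 4 scalings for Ndufa4l2 and Ndufc1 at 24 h and for Ndufa4l2 and Sdha at 48 h. The reverse held under all 4 for no gene at 24 h and for Sdhaf1 at 48 h. At 24 h the call of Ndufa4l2 at 10 mM was lost without water replicate 3, and its call at 0.5 mM without water replicate 2. At 48 h the calls at 0.5 mM of Uqcrc1, Ndufc1 and Sdhaf3 did not hold in every fit without 1 array, and the probesets of Atp5if1 disagreed at 0.5 mM.

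**Figure D4:**
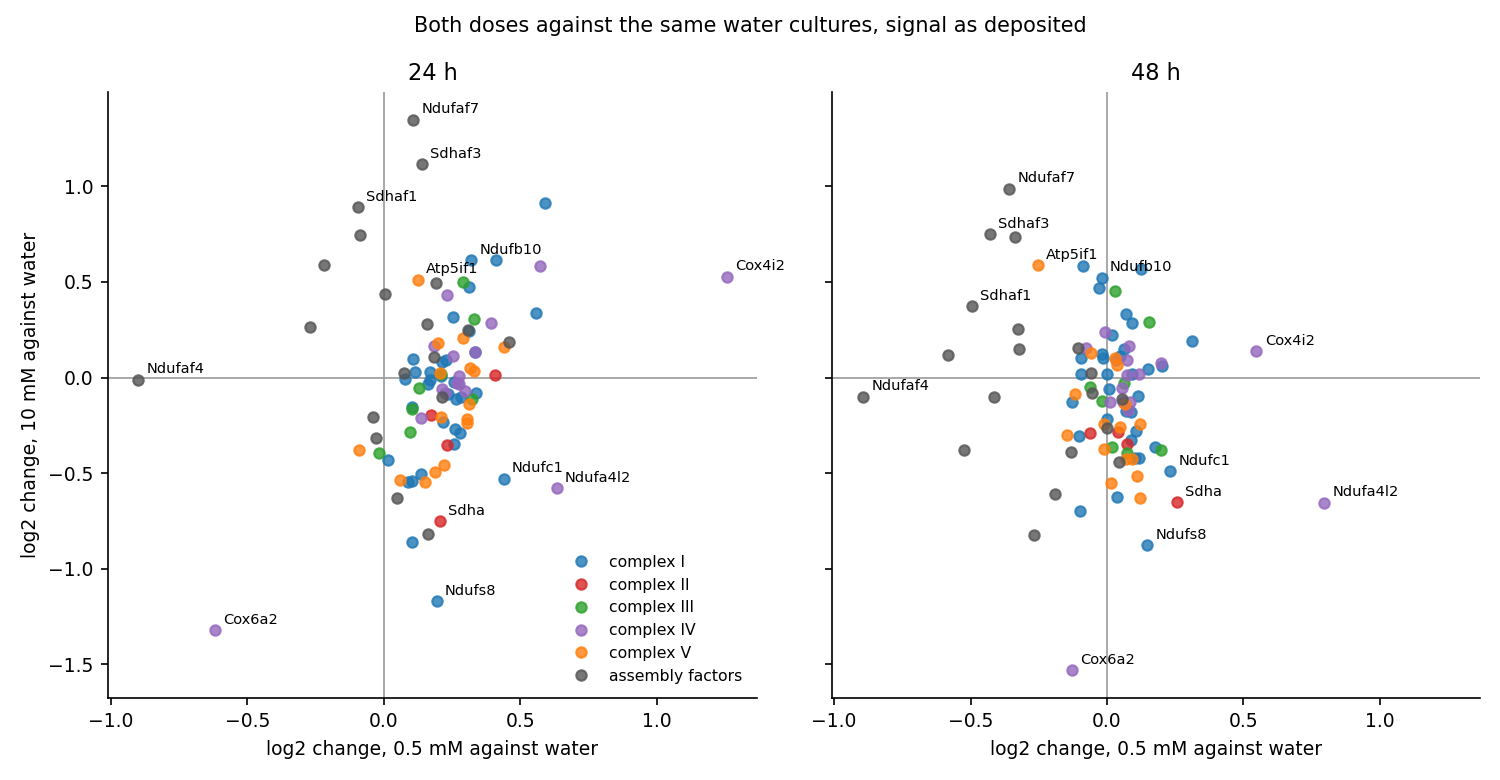
Change of each gene at 0.5 mM (horizontal axis) against its change at 10 mM (vertical axis), log2 difference from the same water cultures, at 24 h (left) and 48 h (right), coloured by class. Sdha, Ndufs8, Ndufc1 and Ndufa4l2 lie at the lower right at both times, Ndufaf4 lies at the far left near a change of 0 at 10 mM, and Ndufaf7 and Sdhaf3 lie at the top.

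Between 24 and 48 h the effect of 10 mM differed in few members and that of 0.5 mM in more. For 10 mM, 2 genes had a more positive effect at 48 h (2.04%, against 6.63% of all genes), Ndufb8 and Ndufs8, and 5 a more negative one (5.1%, against 6.2%), Sdhaf1, Cox19, Ndufaf3, Ndufaf7 and Sdhd. The count of 2 was 1 without any of 7 arrays, and the count of 5 ranged from 3 to 7 over fits without 1 array. The call of Ndufaf3 was lost in 15 of those 20 fits and that of Cox19 in 2. Quantile normalization gave 2 and 10 (all genes 7.28% and 6.9%), median centring 2 and 1 (7.17% and 4.38%), and ribosomal centring 11 and 1 (9.82% and 2.56%). For 0.5 mM, limma called 25 genes with a more negative effect at 48 h (25.5%, against 9.69%) and 0 with a more positive one (against 12%); 49 of the 98 had an unadjusted p under 0.05 in either direction. The widest differences were those of Sdhaf4 (-0.59), Atp5me (-0.59), Sdhaf3 (-0.57) and Cox16 (-0.52). Without the arrays with a high actin ratio 4 genes were called more negative (against 3.17% of all genes), and without 0.5 mM 48 h replicate 1 there were 44. Median centring gave 7 (against 5.55%), and ribosomal centring gave 20 in the other direction (against 27.2%) and 0 in this one (against 1.17%), so the number of calls changed with the arrays left out, and their direction changed with the scaling. In water alone, limma called 3 genes higher at 48 h than at 24 h (3.06%, against 5.11%), Ndufaf7 by 0.39, Atp5me by 0.38 and Sdhaf4 by 0.34, and 0 lower (against 4.96%), with 20 genes at an unadjusted p under 0.05; ribosomal centring gave 1 higher and 6 lower (all genes 1.55% and 9.88%). The call of Atp5me was lost in 5 of 10 fits without 1 array and that of Sdhaf4 in 2. Without water 48 h replicate 3 or replicate 4 the count of 3 moved by over 1.5 times, within a range of 1 to 5.

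Quantile normalization shifted the members by how bright they were. At 10 mM and 24 h the 48 members with a mean log2 level of 14 or more moved by a median of 0.19, beside 0.18 for all 627 genes that bright, and the 26 members below 13 moved by -0.06, beside -0.13. Among the 48 brightest members 8 were higher and 15 lower as deposited, and 25 higher and 9 lower after quantile normalization. Over all 627 genes of that brightness the counts went from 119 and 307 to 248 and 215. At 48 h the counts of the 48 brightest members went from 5 and 21 to 20 and 13, and those of the 627 genes from 112 and 321 to 212 and 225. Quantile normalization sets each value by its rank on its array, so a like shift at like brightness largely follows from the method. For the brightest members the shift was close to that of all genes of their brightness, while below 13 the 2 medians lay further apart. At 0.5 mM and 24 h the shift ran the other way (-0.11 for the brightest members). There 40 of the 48 were higher as deposited (83.3%, against 39.1% of the 627 genes) and 28 after quantile normalization (58.3%, against 20.4%), with 0 lower on either scale.

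**Figure D5:**
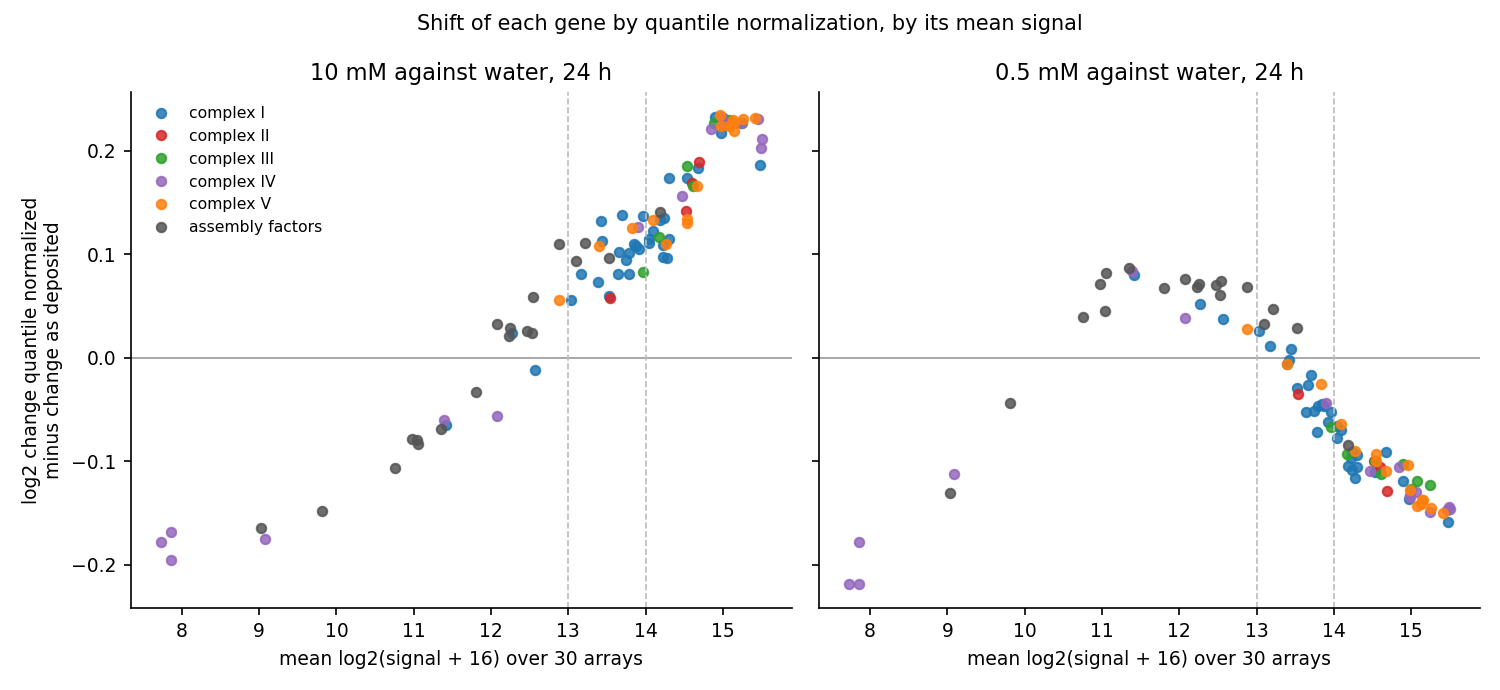
Shift of each member's change by quantile normalization (vertical axis, log2 change after normalization minus change as deposited) against its mean log2(signal + 16) over the 30 arrays (horizontal axis), for 10 mM (left) and 0.5 mM (right) at 24 h, coloured by class, with dashed lines at 13 and 14. Bright members are shifted up at 10 mM (median 0.19 at 14 or more) and down at 0.5 mM (median -0.11), whatever their class.

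Other genes of the pathway were taken from lists set by function. Of 33 further assembly factors tested, 12 were higher (36.4%, against 31.1% of all genes) and 9 lower (27.3%, against 25%) at 10 mM and 24 h, and 10 and 8 at 48 h (30.3% and 24.2%, against 27.6% and 22.3%), shares near the background. Cmc2 rose by 1.35 and 0.68, Uqcc3, an assembly factor of complex III, by 1.22 and 1.01, and Sco1, a copper carrier for complex IV, by 0.93 and 0.56. Atpaf1, a chaperone for the head of the ATP synthase, fell by 0.95 and 0.53. Among 21 genes of mitochondrial biogenesis and transcription, 7 were higher and 8 lower at 24 h (33.3% and 38.1%), and 7 and 4 at 48 h (33.3% and 19%). Tfam, which packs and transcribes mitochondrial DNA, rose by 0.71 and 0.59. Gabpa, the ETS factor whose core motif is shown in the promoters above, fell by 1.01 at 24 h and was not called at 48 h (-0.04). At 0.5 mM 1 of these 21 genes was higher (4.76%) and 8 lower (38.1%) at each time, against 12.7% and 16.1% of all genes at 24 h and 11.9% and 14.1% at 48 h.

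Of 20 genes that make coenzyme Q or feed it electrons, 6 were higher (30%) and 9 lower (45%) at both times at 10 mM. Over all genes the shares were 31.1% and 25% at 24 h and 27.6% and 22.3% at 48 h. Chdh, choline dehydrogenase, fell by 3.40 at 24 h and fell by 2.29 at 48 h, and Etfdh, which passes electrons from fatty acid oxidation to coenzyme Q and was named after its values were seen, fell by 0.75 and 0.25. At 0.5 mM and 24 h 7 of the 20 were higher (35%, against 12.7% of all genes) and 2 lower (10%, against 16.1%). At 48 h 7 were higher (against 11.9%) and 0 lower (against 14.1%). Etfdh rose by 0.39 and 0.41 at 0.5 mM. Of 16 genes of the tricarboxylic acid cycle and pyruvate dehydrogenase, 3 were higher (18.8%, against 31.1%) and 7 lower (43.8%, against 25%) at 10 mM and 24 h. At 48 h 2 were higher (12.5%, against 27.6%) and 7 lower (43.8%, against 22.3%). Ogdh fell by 1.86 and 1.07, Pdha1 by 1.24 and 0.85, and Idh3g by 1.07 and 0.97. At 0.5 mM and 24 h 5 were higher and 5 lower (31.2% each, against 12.7% and 16.1% of all genes). That split was unlike that of the subunits, although the difference between the lists was not tested.

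For markers of other liver cells, the summed signal of some sets moved with the dose. Several of these markers lay below the limit on dim probesets, among them Adgre1, Cd163, Ptprc, Lrat, Pdgfrb, Pecam1 and Vwf. Whether such cells were present was not tested. With the deposited signal, the sum of 9 macrophage markers was 20178 to 24062 in water and 6306 to 7681 at 10 mM at 24 h. At 48 h it was 17442 to 19731 and 5206 to 10222. Of the 6 tested markers 4 fell at both times, against 25% of all genes at 24 h and 22.3% at 48 h. That sum was carried by Cd14, at a mean log2 level of 13.49, since the others lay between 6.07 and 9.61. At 0.5 mM it was 24356 to 26895 at 24 h and 19478 to 24558 at 48 h. The summed signal of 8 stellate cell markers was 3742 to 4323 in water, 4472 to 5098 at 0.5 mM and 2773 to 3243 at 10 mM at 24 h. That of 6 endothelial markers was 1248 to 2141 in water and 962 to 1395 at 10 mM, and that of 4 biliary markers was 7047 to 8606 and 6243 to 7091. At 48 h the biliary sum was 10428 to 12110 in water and 4851 to 6518 at 10 mM. It was nearly all Epcam (mean log2 level 12.95), since Krt19, Krt7 and Spp1 lay below the limit on dim probesets. None of these markers had a signal of 0. The 9 hepatocyte markers summed to 442720 to 568270 in water, 499780 to 601290 at 0.5 mM and 376900 to 455360 at 10 mM at 24 h. Of these 9 markers 7 fell at 10 mM and 24 h, against 25% of all genes. Among the 627 genes with a mean log2 level of 14 or more, 49.0% fell as deposited and 34.3% after quantile normalization. In RNA of a whole culture, fewer cells of a type and less RNA per cell cannot be told apart, and the part of these markers in the members' changes was not tested.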

How the data were processed

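RNA of 30 cultures was labelled with biotin and hybridised to 1 rat expression array each, per the labels' protocols. The deposited values are the authors' MAS5 signal intensity per probeset, per the submitters' processing notes (no version is named there). The file holds 31099 probesets, of which 57 controls were left out; 20826 name 1 gene, 436 several and 9780 none in the platform annotation. Signals were analysed as log2(signal + 16). The closest array pair correlated at 0.976, so no array was counted as a duplicate.

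The 21729 probesets whose mean over all arrays reached the 30th percentile (a log2 value of 7.394) were fitted with limma 3.58.1 (lmFit, eBayes with a trend) in R 4.3.3 over 6 groups of 5, with 24 residual degrees of freedom, two-sided, with Benjamini-Hochberg adjustment over all of them and a threshold of 0.05. A gene was represented by its brightest probeset. Alternatives were quantile normalization, centring on the median or on 46 ribosomal protein genes, other pseudocounts (1 and 64), other filters (none, 50th percentile), the mean of a gene's probesets, a block for each run of 6 arrays, and leaving out arrays. The fit was tested on simulated data.

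The members and the lists were chosen with earlier results of these data known. Named genes were the largest called changes by class and direction (up to 4 at 10 mM, up to 5 at 0.5 mM and in water, up to 4 for changes between times) and a list of key subunits and isoforms. Promoters came from RefSeq. Classes were described by counts and medians, without a test.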

Additional observations from a re-analysis of the deposited data

Results flagged for a closer look

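Among the members' groups of 5 arrays, 11 of 156 held a value far from the others, where chance gives about 1 in 20; the 42 groups of class means held none. The measure is the gap to the nearest value divided by the range of the group. On water 24 h replicate 3, an array with a high actin ratio, Ndufa5 (signal 4528, gap 0.765), Atp5if1 (10419, 0.761) and Sdhaf3 (2125, 0.803) were lowest and Uqcrc1 (20167, 0.852) was highest. On 0.5 mM 48 h replicate 3, another such array, Uqcrc1 was highest (24226, 0.841). The other cases were Uqcrc1 lowest on water 48 h replicate 3 (16646, 0.72), Ndufs8 and Ndufb10 highest on 0.5 mM 24 h replicate 1 (9013, 0.748, and 15244, 0.721), Cox6a2 lowest on that same array (63.0, 0.758), and Ndufa4l2 lowest on 0.5 mM 24 h replicate 5 (4621, 0.72) and on 10 mM 48 h replicate 3 (1964, 0.855).

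The effect of valproate differed between 24 and 48 h by limma's interaction term in these members. For 10 mM, the effect was more positive at 48 h for Ndufb8 by 0.668 (SE 0.204, limma adjusted p = 0.0303) and for Ndufs8 by 0.293 (adjusted p = 0.0162 with limma); the call of Ndufb8 was lost in 7 of 20 fits without 1 array. It was more negative for Sdhaf1 (-0.517, limma adjusted p = 0.00264), Cox19 (-0.441, limma adjusted p = 0.025), Ndufaf3 (-0.366, limma adjusted p = 0.0455) and Ndufaf7 (-0.361, limma adjusted p = 0.0122), of which Ndufaf3 lost its call in 15 of 20 such fits and Cox19 in 2. For 0.5 mM, it was more negative for Sdhaf4 (-0.589, limma adjusted p = 0.00251), Atp5me (-0.586, limma adjusted p = 0.00973), Sdhaf3 (-0.57, limma adjusted p = 0.0206) and Cox16 (-0.52, limma adjusted p = 0.00183). The call of Sdhaf3 was lost without 0.5 mM 48 h replicate 3, an array with a high actin ratio. In all, 5 members were called more negative for 10 mM and 25 for 0.5 mM. The count of 25 was 4 without the arrays with a high actin ratio. With ribosomal centring it was 0, with 20 called more positive.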

How the results depend on the processing

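The scaling of the arrays moved the counts most; the cause of single moves was not tested. It moved the median of all genes at 10 mM by -0.154 and -0.119 (median centring, 24 and 48 h) and by 0.054 and 0.175 (ribosomal centring). With quantile normalization, genes higher numbered 43 and 35 for 10 mM against water at 24 and 48 h and 10 for water at 48 against 24 h; 1 was lower at 0.5 mM and 24 h. The 10 mM effect was more negative at 48 h in 10, and the 0.5 mM effect more positive in 1. Between doses 26 were higher and 31 lower at 24 h, and 37 higher at 48 h. With median centring, genes higher numbered 14 and 9 at 10 mM and 24 and 3 at 0.5 mM, and the effect was more negative at 48 h in 1 (10 mM) and 7 (0.5 mM). With ribosomal centring, 10 mM for 48 h gave 41 higher and 23 lower, 0.5 mM for 24 h gave 28 higher, 0.5 mM for 48 h gave 57 and 4, and water gave 1 and 6; effects were more positive and more negative at 48 h in 11 and 1 (10 mM) and in 20 and 0 (0.5 mM).

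Median changes at 10 mM and 24 h for complexes I to V, assembly factors and all members were 0.0942, -0.119, 0.0996, 0.186, 0.0552, 0.294 and 0.114 with quantile normalization, and -0.183, -0.429, -0.238, -0.164, -0.326, 0.0969 and -0.165 with median centring. Ribosomal centring gave 0.0252, -0.221 and -0.0302 for complexes I to III, 0.305 for assembly factors and 0.0433 for all. At 48 h quantile normalization gave 0.125, -0.163 and 0.103 for complexes I to III, -0.048 for complex V, -0.0184 for assembly factors and 0.0231 for all; median centring gave -0.1, -0.438, -0.204, -0.103, -0.371, -0.199 and -0.21, and ribosomal centring 0.193, -0.144, 0.0897, 0.19, -0.0774, 0.0947 and 0.0841.

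Other settings moved less. Without a filter, the median of complex IV at 24 h was 0.0598 and the 10 mM effect was more negative at 48 h in 3. With the mean of a gene's probesets that count was 2, and medians were -0.0176 (complex III, 24 h), -0.0567 (complex V, 24 h) and 0.12 (assembly factors, 48 h). Without the arrays with a high actin ratio, the 0.5 mM effect was more negative at 48 h in 4 and the median of assembly factors at 24 h was 0.187. The titles carry running numbers that cycle through the 6 groups. With each run of 6 as a block, 5 genes were higher in water at 48 h and the other 17 counts stayed within 1.5 times. The labels do not say what the numbers mark: deviations of same-run arrays correlated at -0.139 to 0.392 over 75 pairs (median 0.003), and 8 of 30 arrays correlated best with their own run.

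Genes whose change had the opposite sign were, with the mean of probesets, Atp5po (0.264 and 0.314), Cox15 at 24 h (0.032) and Sdhaf2 at 48 h (0.436); with quantile normalization, Cox4i1 (0.168) and Cox8a (0.165) at 24 h and Cox5b (0.0474), Cox8a (0.085) and Uqcrfs1 (0.17) at 48 h; with ribosomal centring, Cox5b (0.0074), Cox8a (0.0457) and Uqcrfs1 (0.125) at 10 mM and 48 h and Atp5mc3 (0.155) at 0.5 mM and 48 h.

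Leaving out 1 array at a time, genes lower at 0.5 mM and 24 h ranged from 1 (without water replicate 4 or 0.5 mM replicate 5) to 3 (without water replicate 5), and higher at 0.5 mM and 48 h from 3 (without water replicate 3) to 10 (without 0.5 mM replicate 5). The 10 mM effect was more positive at 48 h in 1 to 2 and more negative in 3 to 7, the 0.5 mM effect more negative in 18 to 44, and 1 to 5 genes were higher in water at 48 h. The median of assembly factors at 10 mM ranged from 0.187 to 0.284 at 24 h and from -0.0887 to 0.00647 at 48 h. Of 151 named gene results, 83 kept their direction and call under every alternative run.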
